A study of Mus musculus with 12 samples.

Results

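The Rhox genes form the reproductive homeobox cluster of the mouse X chromosome. Members of the cluster encode homeodomain transcription factors. They were described here by 5 of the 26742 genes in the deposited count table, chosen by name as members of the methylation-sensitive Rhox cluster: Rhox2a, Rhox5, Rhox6, Rhox9 and Rhox13. All 5 passed the filter on low counts, as did 16627 genes in all. The table holds 34 genes whose name starts with Rhox, and of the 29 that were not chosen 2, Rhox1 and Rhox10, passed it.

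RNA was sequenced from mouse embryonic stem (ES) cells, all labelled male, of the genotype B6J or 129. Cells of both genotypes grew in KO-DMEM based medium with serum and LIF, and each day until day 5 they were given 1 µM of the MEK inhibitor PD 0325901 or the solvent DMSO. MEK passes the growth factor signal on to ERK, and blocking it moves ES cells towards the naive state, in which DNA methylation is known to fall. The 4 groups were B6J with the inhibitor, B6J with DMSO, 129 with the inhibitor and 129 with DMSO, each with 3 libraries. The labels give 1 genotype per background and name no clone, so a difference of background and a difference between the cell lines used cannot be told apart. Nor do they say whether replicates are separate cultures, so the spread behind the p-values may be technical.

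Rhox genes are active mainly in the placenta, the testis, the ovary and the germ line, and most are nearly silent in other tissues. DNA methylation of their promoters is a known part of that silencing, which is why the cluster is often read as a sensor of lost methylation. Rhox5 (also Pem) is the founding member and is expressed in extraembryonic tissue and in Sertoli cells. Rhox6 (Psx1) and Rhox9 (Psx2, Gpbox) are a pair of close relatives known from the placenta and from germ cells. Rhox13 is known from male germ cells, and Rhox2a is 1 of a group of Rhox2 copies. DNA methylation itself was not measured in the files used here.

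GENCODE M21 (GRCm38) holds 26656 of the 26742 gene identifiers and all 34 Rhox genes, and positions follow it. The Rhox genes span X:37213804-38129967, a stretch of 916.2 kb. In order of position, Rhox2a (ENSMUSG00000051827) lies at X:37244976-37249686, Rhox5 (ENSMUSG00000095180) at X:37804842-37808876 and Rhox6 (ENSMUSG00000006200) at X:37826910-37829857, all on the plus strand. Rhox9 (ENSMUSG00000068048) lies at X:37899097-37901770 on the minus strand and Rhox13 (ENSMUSG00000050197) at X:38121219-38129967 on the plus strand. All 5 are annotated as protein coding and have 1 read count per gene and library.

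The sequences of Rhox6 and Rhox9 are shown because these are the pair on which the main result rests. Their coding sequences are 681 bases each in GENCODE M21 and are identical at 617 positions, or 90.6%. The first 90 coding bases, 5′ to 3′ and read on each gene's own strand, differ at 3 positions, which are in capitals.
Rhox6: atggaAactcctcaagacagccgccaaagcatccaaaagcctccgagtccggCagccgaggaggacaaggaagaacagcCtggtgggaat
Rhox9: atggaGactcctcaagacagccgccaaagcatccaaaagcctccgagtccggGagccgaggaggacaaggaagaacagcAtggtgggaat
Over whole transcripts, 159 stretches of 50 bases occur in both genes. These are 16.5% of the stretches of Rhox6 and 6.28% of those of Rhox9, so most of each transcript can be told apart by a read of that length. Rhox5 and Rhox13 share no such stretch with any other gene. Of the stretches of Rhox2a, 91.1% occur in another gene, 7 genes in all, so its count is uncertain: the rule by which reads with several positions were counted is not given in the sources used.

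DNA methylation falls on CG pairs, so the promoters of Rhox5 and Rhox13 are shown with each CG in capitals. They come from RefSeq on GRCm38.p6 and run from 250 bases before to 50 bases after the RefSeq start of the gene. Of the 5 genes, 3 were matched there (Rhox2a, Rhox5 and Rhox13).
Rhox5 (X:37754358-37754657, plus strand): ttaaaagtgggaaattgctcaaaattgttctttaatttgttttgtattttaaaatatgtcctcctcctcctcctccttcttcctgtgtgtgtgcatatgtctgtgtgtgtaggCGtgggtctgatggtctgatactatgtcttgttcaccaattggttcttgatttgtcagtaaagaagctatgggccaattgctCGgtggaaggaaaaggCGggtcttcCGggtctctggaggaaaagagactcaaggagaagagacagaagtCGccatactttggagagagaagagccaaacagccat
Rhox13 (X:38120590-38120889, plus strand): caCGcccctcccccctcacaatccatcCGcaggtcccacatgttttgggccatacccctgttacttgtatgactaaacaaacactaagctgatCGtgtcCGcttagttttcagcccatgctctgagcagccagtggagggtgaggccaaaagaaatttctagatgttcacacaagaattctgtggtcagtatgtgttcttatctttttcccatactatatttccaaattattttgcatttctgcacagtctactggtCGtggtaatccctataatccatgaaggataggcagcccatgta
Both windows lie upstream of the gene starts of GENCODE, which are X:37804842 for Rhox5 and X:38121219 for Rhox13. The window of Rhox13 is close to its gene start, but that of Rhox5 is far from it. Rhox5 is known to use a distal and a proximal promoter, and which start its measured RNA used was not tested. Each of these windows of 300 bases holds 5 CG pairs, and that of Rhox2a holds 8. A CG reads the same on both strands, so 1 search covers both. Among all 32851 promoters in RefSeq, 94.6% hold at least 1 CG, with a median of 7. The other 24 Rhox promoters hold 0 to 12, also with a median of 7.

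The libraries held 62634533 to 96341637 counts each. Levels are given as CPM, the count relative to a library total scaled by TMM (trimmed mean of M values). The whole table was tested with edgeR's quasi-likelihood test, and a call means a p under 0.05 after Benjamini-Hochberg adjustment over all tested genes. The ES cell markers Pou5f1, Sox2, Nanog, Zfp42, Esrrb, Klf4, Tdgf1 and Dppa5a summed to 4650 to 4970 CPM in B6J with the inhibitor and 3550 to 4380 CPM in B6J with DMSO. In 129 they summed to 4770 to 4930 CPM with the inhibitor and 2780 to 4000 CPM with DMSO. Replicate 1 of 129 with DMSO stood apart: 18 primitive endoderm genes summed to 13000 CPM there, against 1630 and 1650 CPM in the other 129 libraries with DMSO and at most 4530 CPM in the other groups. Most of the sum in that library came from Col4a1, Sparc, Lama1, Col4a2 and Lamb1, at 3850, 2490, 2370, 1890 and 1840 CPM. The 20 fibroblast markers were higher with the inhibitor in both backgrounds, at 10700 to 16400 CPM against 7660 to 8510 CPM in B6J and 10500 to 15000 CPM against 5300 to 9650 CPM in 129. Whether they came from feeder cells was not tested. Main results that these differences change are given below also without replicate 1 of 129 with DMSO or with the fibroblast markers as a covariate. That covariate, their mean log2 CPM, was 5.696 to 6.677 in the DMSO libraries and 6.934 to 7.569 in the inhibitor libraries. As these ranges do not overlap, responses to the inhibitor under the covariate are extrapolations and are given as a description. In bulk RNA, fewer cells that express a gene and less of its RNA per cell cannot be told apart.

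Per length of transcript, Rhox5 was the most abundant of the 5 in all 4 groups. It averaged 50.7 ± 3.75 RPKM (CPM per kilobase of exon; SD, n = 3 here and below) in B6J with the inhibitor and 40.0 ± 5.6 RPKM in B6J with DMSO. In 129 it averaged 105 ± 11 RPKM with the inhibitor and 61.0 ± 43.8 RPKM with DMSO. Rhox6 came next, from 2.79 ± 0.0733 RPKM in 129 with DMSO to 10.3 ± 2.28 RPKM in 129 with the inhibitor. In 129 Rhox9 and Rhox13 followed closely. With the inhibitor they stood at 3.38 ± 0.6 and 2.55 ± 0.402 RPKM. Their SD ranges overlapped, but their libraries did not (3.01 to 4.07 and 2.1 to 2.88 RPKM). With DMSO they stood at 1.0 ± 0.0933 and 1.54 ± 0.121 RPKM, where Rhox13 was the higher. In CPM Rhox9 was the higher in that group, at 2.49 ± 0.232 against 1.35 ± 0.106. In B6J Rhox9 stood above Rhox13, which was at 0.393 ± 0.143 RPKM with the inhibitor and 0.23 ± 0.0815 RPKM with DMSO. Rhox2a was lowest in each group, at most 0.318 ± 0.219 RPKM. Apart from Rhox9 and Rhox13 in 129 with DMSO, the order of the genes by mean RPKM was the same in all groups.

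**Figure D1:**
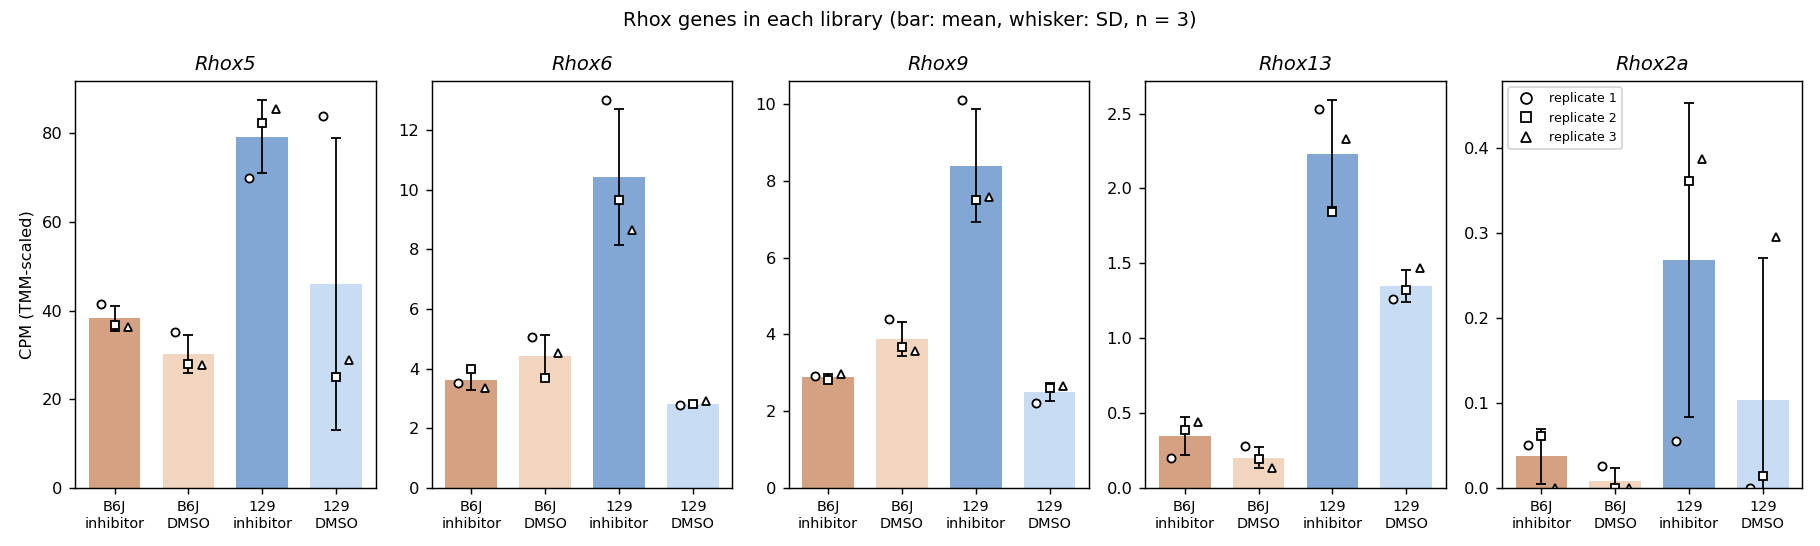
CPM (TMM-scaled, vertical axes, each on its own scale) of the 5 Rhox genes in the 12 libraries. Bars are means and whiskers the SD over 3 libraries, and the symbol gives the replicate number. The 3 libraries of 129 with the inhibitor lie above all others for Rhox6 and Rhox9, and for Rhox5 the library of 129 with DMSO at 84.0 CPM stands far from the other 2 of its group.

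Rhox6 and Rhox9 rose with the inhibitor in 129 and did not rise in B6J. Rhox6 had 13.0, 9.66 and 8.65 CPM in 129 with the inhibitor, against 2.76, 2.80 and 2.90 CPM in 129 with DMSO. In B6J it had 3.52, 3.99 and 3.35 CPM with the inhibitor, against 5.06, 3.67 and 4.53 CPM with DMSO. The 129 groups did not overlap and the B6J groups did. Rhox9 had 10.1, 7.50 and 7.59 CPM in 129 with the inhibitor, against 2.22, 2.59 and 2.65 CPM in 129 with DMSO. In B6J it had 2.92, 2.82 and 2.96 CPM with the inhibitor, against 4.39, 3.67 and 3.56 CPM with DMSO. Here neither pair of groups overlapped, and in B6J all 3 libraries with the inhibitor were below all 3 with DMSO.

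In 129 the log2 fold change was 1.89 (SE 0.18, adjusted p = 1.47e-05) for Rhox6 and 1.76 (SE 0.16, adjusted p = 1.03e-05) for Rhox9, or 3.70-fold and 3.38-fold. Of the 5 genes these 2 were called in 129, where 35.7% of all tested genes were called, and 17.4% called as higher, so the count of called genes does not set the 5 apart. The libraries of 3 of the 5 (Rhox6, Rhox9 and Rhox13) were all higher with the inhibitor in 129, as were those of 23.0% of tested genes. In B6J the log2 fold change was -0.29 (SE 0.17, adjusted p = 0.234) for Rhox6 and -0.42 (SE 0.15, adjusted p = 0.0597) for Rhox9. In B6J 0 of the 5 were called by edgeR, against 31.1% of all tested genes. Before adjustment 2 of them, Rhox9 and Rhox13, were under 0.05. DESeq2 called 1, Rhox9 (adjusted p = 0.0388), and limma-voom 0. Rhox9 also passed in a fit of the B6J groups alone (adjusted p = 0.0365), and in fits that left out replicate 1 of either 129 group (adjusted p = 0.041 for that with DMSO and 0.034 for that with the inhibitor). In B6J the libraries of 1 gene, Rhox5, were all higher with the inhibitor and those of 1, Rhox9, all lower, against 24.3% and 25.7% of tested genes.

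The difference between the responses was tested directly. It was -2.18 on the log2 scale (B6J minus 129; SE 0.25, adjusted p = 0.00227) for Rhox6 and -2.17 (SE 0.22, adjusted p = 0.00166) for Rhox9. By p, Rhox9 was in rank 5 and Rhox6 in rank 13 of the 16627 genes. In this comparison 1.48% of tested genes were called, 246 in all (0.770% as lower), and these 2 were the called ones among the 5. Both were called in each fit tried, with log2 differences from -2.29 to -1.97 for Rhox6 and from -2.24 to -1.94 for Rhox9. With the fibroblast markers as a covariate the differences were -2.15 and -2.17, and the responses in 129 were 1.78 and 1.74. As the 2 genes lie in 1 stretch of the cluster, with Rhox7a, Rhox8 and Rhox7b between them, and are near-identical in part, they do not count as independent of each other. Their log2 CPM went together over the 12 libraries, with a Pearson correlation of 0.984 given as a description, since the libraries share their groups.

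**Figure D2:**
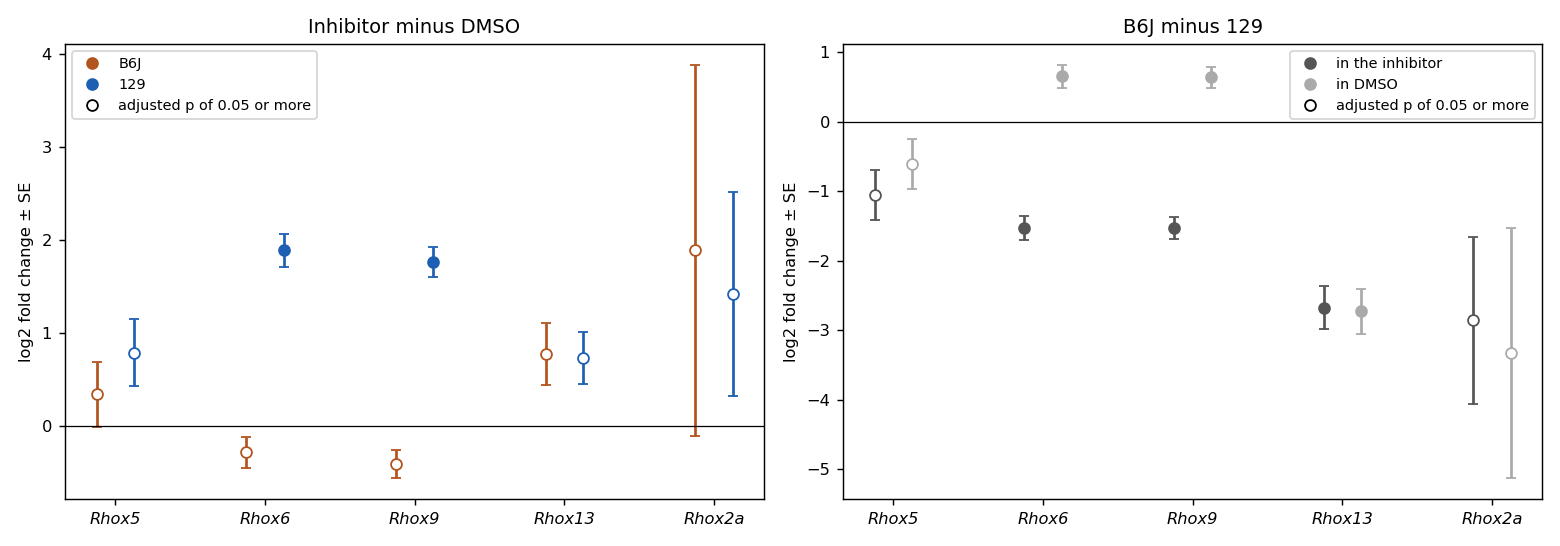
Log2 fold changes (vertical axes) of the 5 Rhox genes with their SE, inhibitor minus DMSO in each background on the left and B6J minus 129 in each medium on the right. Filled points have an adjusted p under 0.05. Rhox6 and Rhox9 lie at 1.89 and 1.76 in 129 and just below 0 in B6J, and their difference between backgrounds is above 0 in DMSO and below 0 in the inhibitor, while Rhox13 lies near -2.7 in both media.

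Between backgrounds, the order of Rhox6 and Rhox9 turned round with the medium. With the inhibitor Rhox6 averaged 3.62 ± 0.33 CPM in B6J and 10.5 ± 2.3 CPM in 129, and Rhox9 averaged 2.9 ± 0.0732 CPM in B6J and 8.41 ± 1.49 CPM in 129. The log2 difference was -1.53 for both (SE 0.17, adjusted p = 0.000106 for Rhox6; SE 0.16, adjusted p = 4.35e-05 for Rhox9). With DMSO both were higher in B6J. Rhox6 averaged 4.42 ± 0.702 CPM in B6J and 2.82 ± 0.074 CPM in 129, a log2 difference of 0.65 (SE 0.17, adjusted p = 0.0212). Rhox9 averaged 3.87 ± 0.452 CPM in B6J and 2.49 ± 0.232 CPM in 129, a log2 difference of 0.64 (SE 0.15, adjusted p = 0.0128). This smaller difference was less stable. For Rhox6 it missed the threshold with limma-voom (adjusted p = 0.0528) and in a fit of the DMSO groups alone (adjusted p = 0.0541). It also missed it once replicate 2 of the 129 DMSO group (adjusted p = 0.0595), or replicate 1 or 3 of the B6J DMSO group (adjusted p = 0.0757 and 0.0599), was left out. For Rhox9 it missed it in the fit of the DMSO groups alone (adjusted p = 0.0507).

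Counting Rhox13, described below, 3 of the 5 genes were called between backgrounds with DMSO and 3 with the inhibitor, against 20.9% and 18.4% of all tested genes. With the inhibitor all 3 were lower in B6J, whereas 9.47% of tested genes were called lower in B6J. With DMSO 2 were higher and 1 was lower in B6J, whereas 10.4% of tested genes were called higher and 10.5% lower. Without overlap between libraries, 4 of the 5 (all but Rhox2a) were lower in B6J with the inhibitor, against 19.6% of tested genes. With DMSO 2 were higher without overlap, against 19.0%, and 1 was lower, against 17.9%.

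The response of Rhox5 in 129 turned on a single library. It had 69.9, 82.4 and 85.4 CPM in 129 with the inhibitor, against 84.0, 25.1 and 28.8 CPM in 129 with DMSO. In B6J it had 41.5, 36.8 and 36.4 CPM with the inhibitor, against 35.1, 27.9 and 27.6 CPM with DMSO. In 129, replicate 1 with DMSO lay within the range of the inhibitor libraries, and the other 2 lay far below them. In B6J the groups did not overlap, but the step was small. With all libraries the log2 fold change was 0.78 in 129 (SE 0.36, adjusted p = 0.107) and 0.34 in B6J (SE 0.35, adjusted p = 0.513), and the difference between these responses was -0.44 (SE 0.50, adjusted p = 0.771).

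Without replicate 1 of 129 with DMSO the values were different. The log2 fold change of Rhox5 in 129 was then 1.56 (adjusted p = 7.52e-06), and that in B6J was 0.34 (adjusted p = 0.0358), as the estimate of the spread is shared by the groups. The difference between the responses was -1.22 (adjusted p = 0.00395). Leaving out both 129 libraries numbered 1, an alternative chosen after seeing the data, gave 1.64 (adjusted p = 8.86e-06), 0.34 (adjusted p = 0.0224) and -1.30 (adjusted p = 0.00236), and Rhox5 then averaged 83.9 CPM with the inhibitor and 27.0 CPM with DMSO in 129. By limma-voom with all libraries the response in 129 was 1.00 (adjusted p = 0.0341).

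That library was also the one with the primitive endoderm genes. Gata4, a lead transcription factor of primitive endoderm, was at 128 CPM in it, against 3.84 and 2.98 CPM in the other 129 libraries with DMSO. Gata6 was at 33.9 CPM in it, against 3.18 and 2.96 CPM, and Sox17 at 20.1 CPM, against 0.7 and 0.593 CPM. Amn, also of that list, went the other way, at 0.398 CPM in it against 0.742 and 0.733 CPM. Of the 16 tested primitive endoderm genes 0 rose and 7 fell in 129 with all libraries, with a median log2 fold change of -1.78 (-0.01 over all tested genes). Without that library 6 rose and 2 fell, with a median of 0.09, so the fall of the list in 129 rested on it. With the fibroblast covariate 0 rose and 14 fell. In B6J 0 rose and 1 fell, with a median of 0.43. Over all tested genes 35.7% were called in 129 and 31.1% in B6J with all libraries. The inhibitor libraries of 129 reached 69.9 to 85.4 CPM of Rhox5 at a primitive endoderm sum of 2870 to 4530 CPM, so a high Rhox5 level was not seen in that library alone. With the fibroblast markers as a covariate the log2 fold change of Rhox5 was 0.03 in 129 (adjusted p = 0.972) and -0.38 in B6J (adjusted p = 0.512). The part that primitive endoderm or fibroblasts have in the Rhox5 level was not tested.

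**Figure D3:**
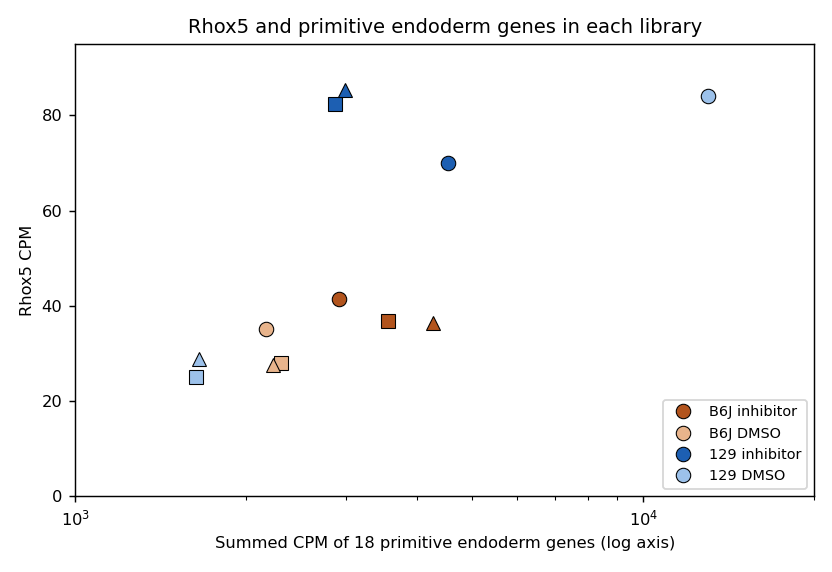
Rhox5 in CPM (vertical axis) against the summed CPM of 18 primitive endoderm genes (horizontal log axis) in the 12 libraries; circles, squares and triangles are replicates 1, 2 and 3. Replicate 1 of 129 with DMSO stands alone at 13000 CPM of primitive endoderm genes and 84.0 CPM of Rhox5, while the 3 libraries of 129 with the inhibitor reach 69.9 to 85.4 CPM of Rhox5 at 2870 to 4530 CPM.

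Between backgrounds, Rhox5 with the inhibitor averaged 38.2 ± 2.82 CPM in B6J and 79.2 ± 8.26 CPM in 129, and the groups did not overlap. The log2 difference was -1.05 (SE 0.36) and missed the threshold with all libraries (adjusted p = 0.0637). It passed without replicate 1, 2 or 3 of 129 with DMSO (adjusted p = 6.23e-05, 0.0315 and 0.0488), with DESeq2 (adjusted p = 0.0173), with limma-voom (adjusted p = 0.0406) and in a fit of the inhibitor groups alone (adjusted p = 0.000595). It passed as well with the fibroblast covariate (-1.12, adjusted p = 0.0138) and in the blocked fit on replicate numbers (-1.08, adjusted p = 0.0491). With DMSO Rhox5 averaged 30.2 ± 4.22 CPM in B6J and 46.0 ± 33.0 CPM in 129, a log2 difference of -0.61 (SE 0.36, adjusted p = 0.267) that became 0.17 (adjusted p = 0.385) without replicate 1 of 129 with DMSO.

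**Figure D4:**
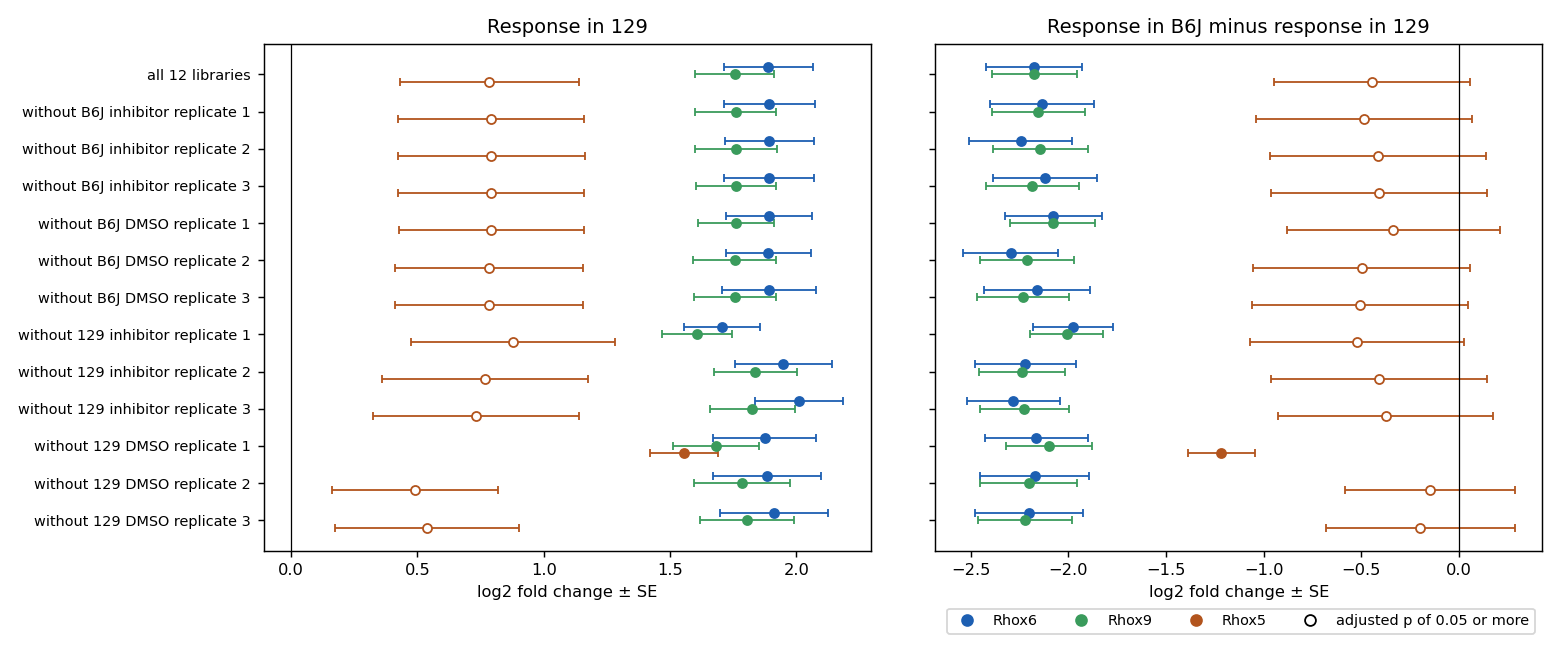
Log2 fold changes with SE (horizontal axes) of Rhox6, Rhox9 and Rhox5 in 129, and of the response in B6J minus that in 129, with all 12 libraries and without each library in turn. Filled points have an adjusted p under 0.05. Rhox6 and Rhox9 stay filled in every row, whereas Rhox5 is filled in 1 row, without replicate 1 of 129 with DMSO, at 1.56 and -1.22.

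Rhox13 differed between the backgrounds whatever the medium. It had 0.202, 0.389 and 0.441 CPM in B6J with the inhibitor, against 2.53, 1.84 and 2.33 CPM in 129 with the inhibitor. With DMSO it had 0.277, 0.193 and 0.135 CPM in B6J, against 1.26, 1.32 and 1.47 CPM in 129. In both media every B6J library lay below every 129 library. The log2 difference was -2.68 with the inhibitor (SE 0.31, adjusted p = 0.000105) and -2.73 with DMSO (SE 0.32, adjusted p = 0.000136), which is 6.42-fold and 6.63-fold lower in B6J. These calls held in all 22 alternative fits of each.

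The response of Rhox13 to the inhibitor was of like size in both backgrounds and did not pass the test in either. The log2 fold change was 0.77 in B6J (SE 0.33, adjusted p = 0.102) and 0.73 in 129 (SE 0.28, adjusted p = 0.063). In 129 the inhibitor libraries were all above the DMSO libraries. In 129 it passed with DESeq2 (adjusted p = 0.0197), limma-voom (adjusted p = 0.0236), a fit of the 129 groups alone (adjusted p = 0.0347) and that fit blocked on the replicate number (adjusted p = 0.0309). It passed too with halved counts (adjusted p = 0.0367) and without replicate 1 of B6J with the inhibitor (adjusted p = 0.0316), while the block over all groups gave an adjusted p of 0.0971. In B6J it passed without replicate 1 with the inhibitor (1.06, adjusted p = 0.0224). The difference between the responses was 0.05 with a 95% interval from -0.74 to 0.83 (adjusted p = 0.977), which leaves room for a difference in either direction.

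Rhox2a was barely detected. Its reads numbered 4, 5 and 0 in B6J with the inhibitor, against 2, 0 and 0 in B6J with DMSO. In 129 they numbered 4, 24 and 32 with the inhibitor, against 0, 1 and 19 with DMSO. The groups of each background overlapped, and in 129 replicate 3 with DMSO held 19 of the 20 reads of its group. Summed over a group and scaled by library size, the ratio of inhibitor to DMSO was 4.15 in B6J (95% counting interval 0.86 to 39.5) and 2.83 in 129 (1.68 to 4.95). The ratio of B6J to 129 was 0.129 with the inhibitor (0.0565 to 0.262) and 0.088 with DMSO (0.00998 to 0.362). These intervals cover counting error only and take each read as independent. Of the counts from 1 to 20 over all genes 71.5% are even, and whether the intervals are too narrow for that reason was not tested. The fit across libraries called none of the 4 comparisons (adjusted p = 0.516, 0.348, 0.146 and 0.216). Without replicate 3 of 129 with DMSO the response in 129 passed (4.99, adjusted p = 0.0309), and with the fibroblast covariate it passed in 129 (7.59, adjusted p = 0.0144) and in B6J (5.97, adjusted p = 0.0384). With so few reads these fitted values depend on single libraries. Rhox2a passed the filter on low counts only through 129 libraries, so its ratios of B6J to 129 do not count towards a shared direction.

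Of the 29 other Rhox genes, Rhox1 and Rhox10 were tested. Rhox1 lies at the end of the cluster next to Rhox2a. It rose in both backgrounds, with 0.849 ± 0.0955 CPM in B6J with the inhibitor and 0.437 ± 0.0577 CPM in B6J with DMSO, and with 1.87 ± 0.345 CPM in 129 with the inhibitor and 0.897 ± 0.234 CPM in 129 with DMSO. The log2 fold change was 0.96 in B6J (SE 0.25, adjusted p = 0.0128) and 1.06 in 129 (SE 0.24, adjusted p = 0.00523). Leaving out replicate 2 of the B6J DMSO group gave 0.87 in B6J (adjusted p = 0.0522). Rhox1 was lower in B6J than in 129, by a log2 difference of -1.14 with the inhibitor (SE 0.24, adjusted p = 0.00597) and -1.03 with DMSO (SE 0.25, adjusted p = 0.013). In DMSO it missed the threshold once replicate 3 of the 129 group (adjusted p = 0.0535) or replicate 2 of the B6J group (adjusted p = 0.0536) was left out.

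Rhox10, a gene known from spermatogonia, had 4 reads in all in B6J with the inhibitor and 14 in B6J with DMSO, against 82 in 129 with the inhibitor and 118 in 129 with DMSO. It was lower in B6J, by a log2 difference of -4.42 with the inhibitor (SE 0.61, adjusted p = 0.000422) and -3.22 with DMSO (SE 0.50, adjusted p = 0.000916). Its response to the inhibitor was not called in B6J (-1.82, adjusted p = 0.0831) or in 129 (-0.62, adjusted p = 0.268). Rhox10 passed the filter on low counts only through its 129 libraries, so its calls do not count towards a shared direction. Rhox1 and Rhox13 were called lower in B6J in both media. Of all tested genes 9.47% were called lower in B6J with the inhibitor and 10.5% with DMSO. The Rhox2b copy had 0 reads in B6J with the inhibitor and 2 in B6J with DMSO, against 26 in 129 with the inhibitor and 5 in 129 with DMSO. It did not pass the filter on low counts. In the fits without that filter it was called lower in B6J with the inhibitor, by edgeR (adjusted p = 0.0291) and by DESeq2 (adjusted p = 0.00961). The other Rhox genes below the filter averaged under 0.1 CPM in every group.

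The cluster was also set against its surroundings. Within 500 kb of the outermost Rhox genes the table holds 24 other genes, of which 18 were tested. With all libraries edgeR called none of the 18 for a difference between the responses, which ranged from -3.55 to 1.86. In 129, 5 of them fell (Nkrf, Sept6, Zbtb33, Tmem255a and Mcts1) and 0 rose. In B6J 1 rose, Lamp2, a lysosomal membrane protein, and 3 fell (Sept6, Gm9 and Mcts1). Over all tested genes 35.7% were called in 129 and 31.1% in B6J. Between backgrounds 1 of the 18 was lower in B6J with the inhibitor, Gm9, and 1 with DMSO, C330007P06Rik. Over all tested genes 18.4% were called between backgrounds with the inhibitor and 20.9% with DMSO. The calls of Sept6 and Nkrf were lost in 1 alternative fit, that with the fibroblast covariate. Those of the other neighbours were lost in 1 to 11 alternative fits, among them fits without single libraries. Gm9 lies next to Rhox1 and averaged 0.129 ± 0.0569 CPM in B6J with the inhibitor and 0.576 ± 0.22 CPM in B6J with DMSO. In 129 it averaged 0.805 ± 0.483 CPM with the inhibitor and 0.303 ± 0.167 CPM with DMSO. Its difference between the responses, -3.55, was the lowest among the 18 and missed the threshold (adjusted p = 0.0834). It passed in 4 of 20 alternative fits, those with DESeq2, with the fibroblast covariate, without replicate 1 of 129 with the inhibitor and without both 129 libraries numbered 1, with an adjusted p down to 0.00476.

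**Figure D5:**
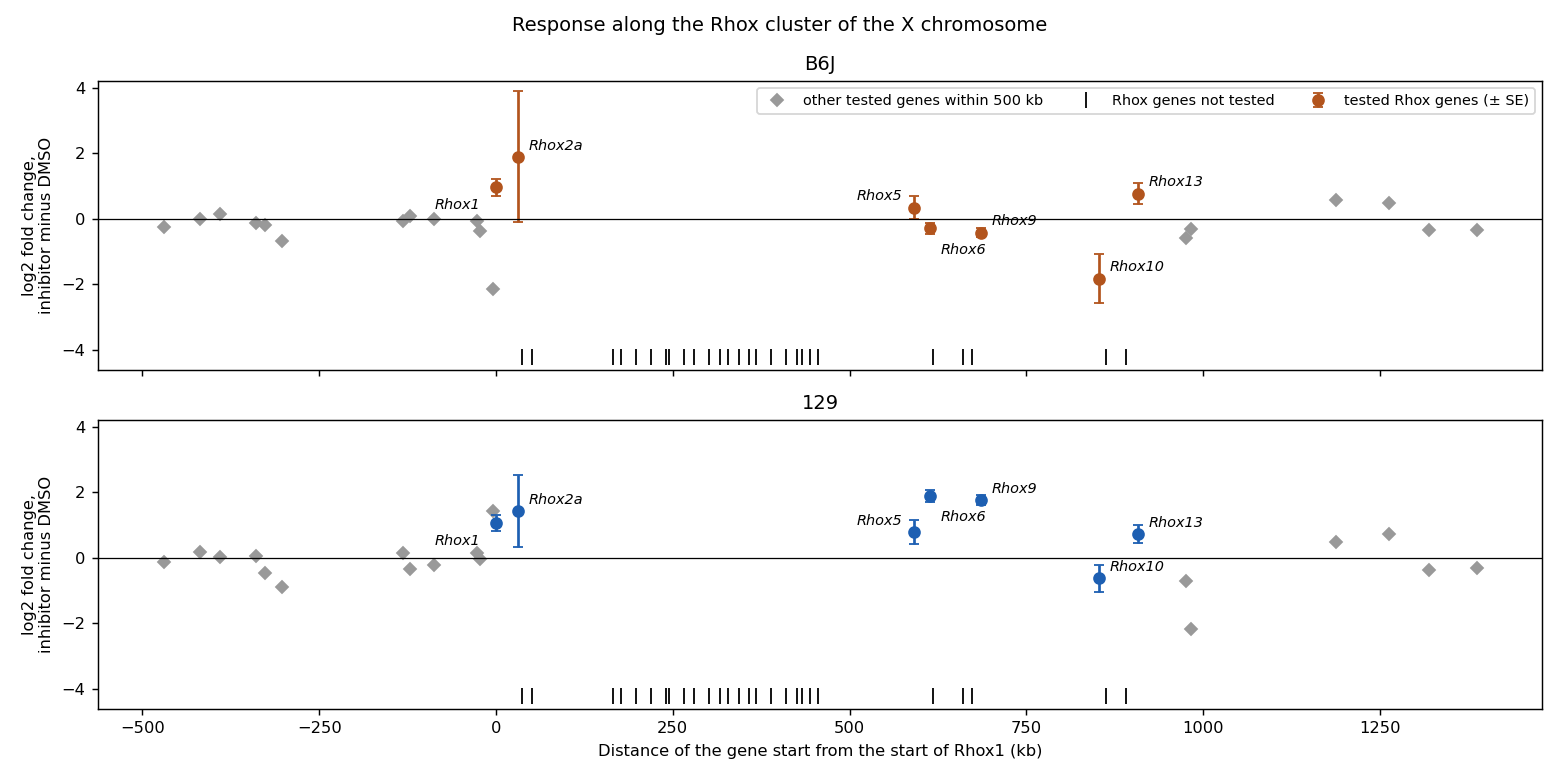
Log2 fold changes, inhibitor minus DMSO (vertical axes), of the tested Rhox genes (circles, with SE) and of the other tested genes within 500 kb (diamonds) in B6J and in 129, by distance of the gene start from the start of Rhox1 in kb. Ticks mark Rhox genes that were not tested. Rhox6 and Rhox9 lie at 1.89 and 1.76 in 129 and at -0.29 and -0.42 in B6J, and Rhox1 is near 1 in both.

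The genes that write and remove DNA methylation were read beside the Rhox genes. Of 14 genes for writing and maintenance, 5 rose and 3 fell in B6J, and 4 rose and 3 fell in 129. With the fibroblast covariate 6 rose and 2 fell in B6J, and 3 rose and 2 fell in 129. Over all tested genes 31.1% were called in B6J and 35.7% in 129 without that covariate. Dnmt3b, a de novo methyltransferase, averaged 332 ± 34.8 CPM in B6J with the inhibitor and 846 ± 3.62 CPM in B6J with DMSO, and 278 ± 24.8 CPM in 129 with the inhibitor and 723 ± 78.3 CPM in 129 with DMSO. Its log2 fold change was -1.35 in B6J (adjusted p = 3.44e-06) and -1.38 in 129 (adjusted p = 2.34e-06). The other de novo enzyme, Dnmt3a, was higher in B6J with DMSO, where it averaged 316 ± 42.2 CPM in B6J and 164 ± 32.3 CPM in 129 (0.95, adjusted p = 0.0016). With the inhibitor it averaged 132 ± 3.93 CPM in B6J and 122 ± 21.9 CPM in 129 (0.11, adjusted p = 0.721). Dnmt1, which copies methylation after replication, was called in none of the 5 comparisons, and its partner Uhrf1 rose in both backgrounds (0.61 in B6J, adjusted p = 0.000124; 0.55 in 129, adjusted p = 0.000252).

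A difference between the responses was called for 1 of the 14 writers, Uhrf2, a relative of Uhrf1 (0.57, adjusted p = 0.045). It was kept in 8 of 21 alternative fits, with an adjusted p of up to 0.127 in the others, and with the fibroblast covariate 1 writer was higher and 2 were lower. Such a difference was also called for 2 of 16 genes for demethylation, Dppa3 and Gadd45a, which like Rhox6 and Rhox9 rose in 129 (0.65, adjusted p = 0.00338, and 0.43, adjusted p = 0.0139). In B6J both fell (-0.45, adjusted p = 0.0252, and -0.76, adjusted p = 0.000426), but with the fibroblast covariate the fall of Dppa3 in B6J (adjusted p = 0.606) and the rise of Gadd45a in 129 (adjusted p = 0.43) were no longer called. Dppa3, a factor that limits Uhrf1, averaged 42.1 ± 2.63 CPM in B6J with the inhibitor and 57.2 ± 5.46 CPM in B6J with DMSO, against 16.7 ± 2.58 CPM in 129 with the inhibitor and 10.6 ± 1.69 CPM in 129 with DMSO. Its difference between the responses was -1.10 (adjusted p = 0.0187), called in 18 of 21 alternative fits. Its adjusted p reached up to 0.0669 in the others, without replicate 2 of 129 with DMSO, replicate 1 of B6J with DMSO or replicate 2 of B6J with the inhibitor. Gadd45a, a stress protein tied to DNA repair, averaged 30.5 ± 0.718 CPM in B6J with the inhibitor and 51.7 ± 1.08 CPM in B6J with DMSO, against 33.5 ± 6.92 CPM in 129 with the inhibitor and 25.0 ± 0.148 CPM in 129 with DMSO. Its difference was -1.19 (adjusted p = 0.00572), called in all 21. Of the Tet oxidases, Tet1 was called in neither background and Tet2 in B6J alone (0.97, adjusted p = 0.0246), a call kept in 18 of 22 alternative fits. Tet3 was lower with the inhibitor in both (-0.57 in B6J, adjusted p = 0.0306; -0.71 in 129, adjusted p = 0.00964), with the call in B6J kept in 15 of 22 fits.

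Other germline genes whose silencing is known to need methylation were read as a list beside Rhox6 and Rhox9. Of 47 such genes 46 were tested. In B6J 12 rose and 7 fell, and in 129 10 rose and 8 fell. Over all 16627 tested genes 2423 rose and 2743 fell in B6J, and 2899 rose and 3031 fell in 129. The median log2 fold change of the list was 0.04 in B6J and 0.16 in 129, against 0.00 and -0.01 over all tested genes. The counts of the list moved with the fibroblast covariate, under which 19 rose and 3 fell in B6J and 22 rose and 2 fell in 129, with medians of 0.80 and 1.01 (0.00 and 0.01 over all tested genes). Under it 2394 of all tested genes rose and 2655 fell in B6J, and 2311 rose and 2526 fell in 129. A difference between the responses was called for 1 gene of the list, Xlr3a, in the opposite direction (4.21, adjusted p = 0.0042; 0.0526 with limma-voom), and the median difference was 0.07. With the fibroblast covariate 1 was higher and 3 were lower for that difference, with a median of -0.14. Between backgrounds more of the list was called lower than higher in B6J, and Rhox13 was lower there too. Of the 46 tested, 16 were lower and 2 higher with the inhibitor, and 18 were lower and 5 higher with DMSO. Of all tested genes 9.47% were called lower with the inhibitor and 10.5% with DMSO. Without both 129 libraries numbered 1, 26 of 47 tested were lower and 2 higher with the inhibitor. In that fit 2074 of all 16916 tested genes were called lower. With all libraries the median log2 difference of the list was -0.66 with the inhibitor and -0.60 with DMSO. Over all tested genes it was -0.01 in either medium. Genes of that list lower in B6J in both media include Gtsf1 and Slc25a31, both known from male germ cells, and the synaptonemal complex gene Syce1. Going the other way, Ddx4 and Dmc1 of that list were called higher in B6J in both media, and Piwil2, Tdrd1 and Rec8 with DMSO.

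Levels of germ cell and trophoblast genes, the cell types in which Rhox genes are best known, are given with these. Beside the counts that follow, 31.1% of all tested genes were called in B6J and 35.7% in 129. Of 12 primordial germ cell genes 5 rose and 3 fell in B6J, and 6 rose and 4 fell in 129 (with the fibroblast covariate 5 and 1 in B6J, and 6 and 1 in 129). The list summed to 1260 to 1390 CPM in B6J with the inhibitor and 729 to 850 CPM in B6J with DMSO, and to 1220 to 1350 CPM in 129 with the inhibitor and 688 to 923 CPM in 129 with DMSO. Of 16 tested trophoblast genes 3 rose and 8 fell in B6J, and 6 rose and 8 fell in 129. That list summed to 243 to 253 CPM in B6J with the inhibitor and 887 to 1100 CPM in B6J with DMSO, and to 275 to 286 CPM in 129 with the inhibitor and 738 to 1580 CPM in 129 with DMSO. With DMSO most of that sum came from Peg10, Krt8, Krt18 and Krt19, which fell in both backgrounds, as did Cdx2, Eomes, Hand1 and Krt7. The genes that rose were Tfap2a, Gata3 and Tead4 in B6J, and Tfap2a, Tfap2c, Gata2, Gata3, Ascl2 and Esx1 in 129. Without replicate 1 of 129 with DMSO 7 of 17 tested rose and 8 fell in 129. Levels differed widely within the list. Tpbpa was at 0 in all 12 libraries and Elf5 averaged at most 0.0977 ± 0.0908 CPM in a group. Eomes averaged 31.4 ± 3.42 CPM in 129 with DMSO and 8.82 ± 1.5 CPM in B6J with DMSO. Cdx2 averaged 2.22 ± 0.475 CPM in 129 with DMSO and 1.27 ± 0.265 CPM in B6J with DMSO. For the difference between the responses 1 trophoblast gene was called higher, Eomes, and 2 lower, Gata3 and Krt7. That of Eomes was 2.41 (adjusted p = 0.00115), opposite in direction to Rhox6 and Rhox9, and was called in all 21 alternative fits. Gata3, a transcription factor of early trophoblast, averaged 2.49 ± 0.491 CPM in B6J with the inhibitor and 1.64 ± 0.0673 CPM in B6J with DMSO, against 3.02 ± 0.0729 CPM in 129 with the inhibitor and 0.618 ± 0.143 CPM in 129 with DMSO. Its difference was -1.68 (adjusted p = 0.0174), in the direction of Rhox6 and Rhox9, and was called in 18 of 21 alternative fits, with an adjusted p of up to 0.0574 without replicate 3 of 129 with the inhibitor or replicate 1 or 2 of B6J with the inhibitor. That of Krt7 (-1.38, adjusted p = 0.0395) was called in 9 of 21. The part that trophoblast cells have in the Rhox levels was not tested.

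For each Rhox gene the 3 tested genes whose log2 CPM followed it most closely over the 12 libraries were listed by Pearson correlation, as a description of likeness. For Rhox6 they were Cpsf4l (0.956), Grhl3 (0.946), an epithelial transcription factor, and Prmt3 (0.929), an arginine methyltransferase. For Rhox9 they were Cpsf4l (0.959), Prmt3 (0.954) and Slc52a3 (0.94), a riboflavin transporter. For Rhox5 they were the deacetylase Hdac6 (0.963), Slc35e1 (0.958) and the mitochondrial thiolase Acaa2 (0.95). Grhl3 averaged 14.2 ± 1.41 CPM in B6J with the inhibitor and 13.6 ± 0.33 CPM in B6J with DMSO, against 23.4 ± 0.377 CPM in 129 with the inhibitor and 11.8 ± 0.599 CPM in 129 with DMSO. Acaa2 had a wide spread in 129 with DMSO, as Rhox5 did, at 28.7 ± 12.5 CPM. For Rhox13 they were Crocc2 (0.984), Clca3b (0.982) and Ushbp1 (0.981), all far lower in B6J. For Rhox2a, at its few reads, they were Srbd1 (0.93), Draxin (0.928) and Npepps (0.922). The 5 Rhox genes were less alike among themselves, apart from Rhox6 and Rhox9: the other pairs had correlations from 0.439 to 0.631.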

How the data were processed

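RNA of 12 mouse ES cell libraries was analysed. The authors deposited whole-number read counts per gene, without normalization, as 1 table. Per the labels, RNA was extracted with Trizol and libraries were made with a stranded mRNA kit. Per the submitters' processing notes, HTSeq 0.6.1p1, STAR 2.7.10, SAMtools and DESeq were used, in no given role, with GRCm38 and mm10 as builds. Which annotation, strand setting and rule for reads with several positions were used in counting is not given in the sources used. Of the counts from 1 to 20, 71.5% are even, and of the 56 counts above 0 of the 5 Rhox genes 60.7% are, so halved counts were tried.

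The tool for counts was edgeR 4.0.16 (R 4.3.3): filterByExpr (min.count 10, min.total.count 15), TMM, 1 quasi-likelihood fit of 4 group means (glmQLFit, glmQLFTest) and 5 contrasts, with Benjamini-Hochberg adjustment over 16627 genes. An adjusted p comes from this edgeR fit where no other tool stands beside it. RPKM is CPM per kilobase of the union of exons. Alternatives were DESeq2 1.42.0, limma-voom (limma 3.58.1), other size factors, filters and groups in the fit, a fibroblast covariate, a replicate block and leaving out each library. The pipeline was tested on simulated data. Levels behind likeness are log2 CPM with a prior count of 2.

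The 5 genes, the lists and the tests were chosen with earlier results of these data known. Named are the 5 genes, other Rhox genes called or with at least 0.1 CPM in a group, methylation genes, called neighbours and the 3 most alike genes (at least 1 CPM in the higher group, no provisional names). Gata4, Gata6, Sox17 and the named germline and trophoblast genes were chosen after their values were seen. Same-numbered 129 libraries deviated together (correlations 0.442, 0.295 and 0.222 for numbers 1, 2 and 3). Across numbers 2 and 3 the correlations between 129 libraries were close to the latter, at 0.209 and 0.194. Pairing by number was thus not shown beyond number 1, and the main fit did not pair libraries. Same-numbered B6J libraries did not deviate together (-0.188, 0.0883 and -0.17).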

Additional observations from a re-analysis of the deposited data

Results flagged for a closer look

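Rhox6 and Rhox9 were picked out because their response to the inhibitor differed between the backgrounds in a direct test. The response in B6J minus that in 129 was -2.18 on the log2 scale for Rhox6 and -2.17 for Rhox9 (edgeR's quasi-likelihood test, adjusted p = 0.00227 and 0.00166). All 3 inhibitor libraries lay above all 3 DMSO libraries in 129 for both genes, and below them in B6J for Rhox9.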

How the results depend on the processing

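The gene values of Rhox6 and Rhox9 in 129 and for the difference between the responses, and of Rhox13 between backgrounds, kept their direction and their call in every alternative that was run. Over all tested Rhox genes and alternatives, 696 values kept direction and side of the threshold, 33 newly passed it, 9 no longer did and 18 changed direction. Depth limits Rhox2a and Rhox10, and the strict filter leaves Rhox2a untested.

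The number of the 5 genes called was 2 in 129 (4 with limma-voom, and above 2 in further fits named below). In B6J it was 0 (1 with DESeq2, 1 with the fibroblast covariate, 2 in a fit of those groups alone, 2 without both 129 libraries numbered 1, and 0 to 2 without single libraries). Between backgrounds with DMSO it was 3 (1 in a fit of those groups alone), and with the inhibitor 3 (5 without both 129 libraries numbered 1). These 5 include Rhox2a, which passed the filter on low counts only through 129 libraries. In 129 further fits added 1 gene. It was Rhox13 with DESeq2, halved counts, the 129 groups alone (with or without the block) or without replicate 1 of B6J with the inhibitor. Leaving out replicate 1 of 129 with DMSO, or both 129 libraries numbered 1, added Rhox5. The fibroblast covariate, or leaving out replicate 3 of 129 with DMSO, added Rhox2a. Other fits lost Rhox6 with DMSO or gained Rhox5 with the inhibitor, as given above. Over all genes, 246 were called for the difference between the responses, against 788 with DESeq2, 801 with the fibroblast covariate, 163 with limma-voom, 608 without both 129 libraries numbered 1 and 73 to 586 without single libraries. Between backgrounds with DMSO 3468 were called, and 2247 in a fit of those groups alone. The causes were not tested.

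With the replicate number as a block over all groups, 156 genes were called for the difference between the responses, Rhox6 and Rhox9 among them (-2.15 each). In a fit of the 129 libraries alone Rhox13 passed without the block (adjusted p = 0.0347) and with it (adjusted p = 0.0309), and the block changed no call among the 5 genes there.

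Values that changed direction were not called in either fit. With the fibroblast covariate they were Rhox10 in 129 (0.20), Rhox5 in B6J (-0.38) and the difference between responses of Rhox2a (-1.62; -1.39 with limma-voom). Without single libraries the difference between responses ranged from -3.09 to 3.10 for Rhox2a, from -0.17 to 0.34 for Rhox13 and from -0.28 to 0.0874 for Rhox1. Between backgrounds with DMSO Rhox2a reached 0.24 without replicate 3 of 129 with DMSO, from a lowest value of -5.96. Rhox5 reached 0.17 without replicate 1 of 129 with DMSO (lowest -0.90) and 0.17 without both libraries numbered 1.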
